A study of Homo sapiens with 6 samples.

Results

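This account describes the regulators of Rab GTPases of the TBC and DENN families in KYSE30, an established human cell line from an oesophageal squamous cell carcinoma, after siRNA against RAB23. Members were taken by name from the protein-coding genes of the deposited table: symbols beginning with TBC1D or DENND and a digit, plus EVI5, EVI5L, USP6NL, RABGAP1, RABGAP1L, RAB3GAP1 and RAB3GAP2. This gave 65 of the 58735 genes in the table, of which 19951 are protein coding. A further 15 genes matched by name but were not protein coding. The members comprised 49 TBC genes, 14 DENN genes and both RAB3GAP genes, and 11 of the TBC genes are TBC1D3 copies. The choice used names only and no measured value.

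The study measured transcripts by bulk RNA sequencing of total RNA in 3 groups of 2 libraries. One group received a control siRNA (si-NC), one si-RAB23-1 and one si-RAB23-9, each at 100 nM with the lipid reagent HiPerFect, and RNA was taken with Trizol before the cells were fully confluent. All groups share the cell line and the transfection, no untransfected cells were included in the groups compared here, and si-NC is the stated reference of both RAB23 siRNAs. The libraries of a group are labelled as biological replicates without mention of separate cultures, so the p-values reflect how far these libraries scatter, part of which may be technical. The sequences of the siRNAs and the time from transfection to harvest are not stated in the sources this account draws on.

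Rab proteins are small GTPases that mark membrane compartments and recruit the machinery for vesicle budding, movement and fusion. They are active when bound to GTP. Exchange factors, among them the DENN domain proteins, load them with GTP, and GTPase-activating proteins, most of which carry a TBC domain, speed up GTP hydrolysis and so switch them off. RAB3GAP1 and RAB3GAP2 form a complex without a TBC domain that acts as GTPase-activating protein for RAB3 and as exchange factor for RAB18. RAB23 restrains Hedgehog signalling and has been linked to the primary cilium. EVI5L has been described as a GTPase-activating protein for RAB23, and INTU with FUZ as its exchange factor.

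Values are FPKM, fragments scaled to exon length and to library size, in the order replicate 1 and replicate 2 of each group. RAB23 (chr6:57186992-57222314 on GRCh38, minus strand) stood at 3.265 and 3.334 FPKM in si-NC, 1.029 and 1.096 in si-RAB23-1, and 1.182 and 1.27 in si-RAB23-9. It fell to 0.322 and 0.372 of the control mean (limma log2 changes -1.06 and -0.95, adjusted p = 0.00314 and 0.00392), in the direction the labels give. Here and below, log2 changes come from log2(FPKM + 1) and so understate what happened to weakly expressed genes, and a gene is said to have passed, risen or fallen where limma's Benjamini-Hochberg adjusted p over all 14352 genes tested was under 0.05. The libraries held between 17211025 and 24178125 reads, recovered from the FPKM and the gene lengths. Squamous epithelial markers summed to between 448.2 and 505.1 FPKM per library, and 8 of 10 reached 1 FPKM in all 6 libraries, with KRT5 and PKP1 near 0. Leukocyte markers summed to at most 0.866 FPKM, and CDH5 among 5 endothelial markers and COL1A1 among 7 fibroblast markers were the only others at 1 FPKM or more in all libraries. The squamous sum was highest in si-RAB23-1 (493.0 to 505.1, against 448.2 to 463.8 in si-NC and 452.5 to 456.8 in si-RAB23-9). SFN, its largest part, overlapped there with si-NC (292.0 and 301.2, against 310.5 and 290.8), while SOX2, TP63, DSG3 and KRT6A were higher. In si-RAB23-9, SFN (264.3 and 261.5) and TP63 were lower than in si-NC. SOX2 (65.43 and 62.48, against 35.79 and 40.61) and EPCAM were higher there, so the sum hides opposite shifts. The endothelial sum, mostly CDH5, was lower in si-RAB23-1 (1.624 to 2.115) and si-RAB23-9 (2.745 to 3.176) than in si-NC (3.772 to 3.803), and the part of these shifts in the results below was not tested. In bulk samples, fewer cells with a transcript and less transcript per cell cannot be told apart.

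Most of the family was expressed at low to moderate levels. The control mean was at least 10 FPKM for 7 members, between 1 and 10 for 45 and under 1 for 13. Genes were tested where 2 or more libraries reached 1 FPKM, which 52 members did: 33 of the 38 TBC genes that are not TBC1D3 copies, 4 of the 11 copies, 13 of the 14 DENN genes and both RAB3GAP genes. The 13 that were not tested reached at most 0.489 FPKM (TBC1D3K) in any library. They include DENND2A, TBC1D10C, TBC1D21, TBC1D26, TBC1D28 and TBC1D29. The median control mean of the members tested was 4.615 FPKM, beside 5.418 for all genes tested.

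At the top of the order stood TBC1D9B at 26.71 ± 0.206 FPKM (SD, n = 2), TBC1D2 at 20.64 ± 1.26 and TBC1D8 at 17.48 ± 0.211. RAB3GAP1 (16.08 ± 0.423) and RABGAP1 (15.34 ± 0.416) followed with control libraries of 15.78 and 16.38 for the first and 15.05 and 15.64 for the second, and the interval from mean minus SD to mean plus SD of one touches that of the other. TBC1D13 (13.96 ± 0.47) and TBC1D20 (13.33 ± 0.032) were the last above 10 FPKM. The leading DENN genes were DENND4B, an exchange factor for RAB10, at 9.668 ± 0.519, DENND6A, an exchange factor for RAB14, at 6.04 ± 0.141, and DENND1A, an exchange factor for RAB35, at 5.572 ± 0.0787. EVI5L stood at 7.424 ± 0.131 FPKM, above RAB23 itself in every library.

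**Figure D1:**
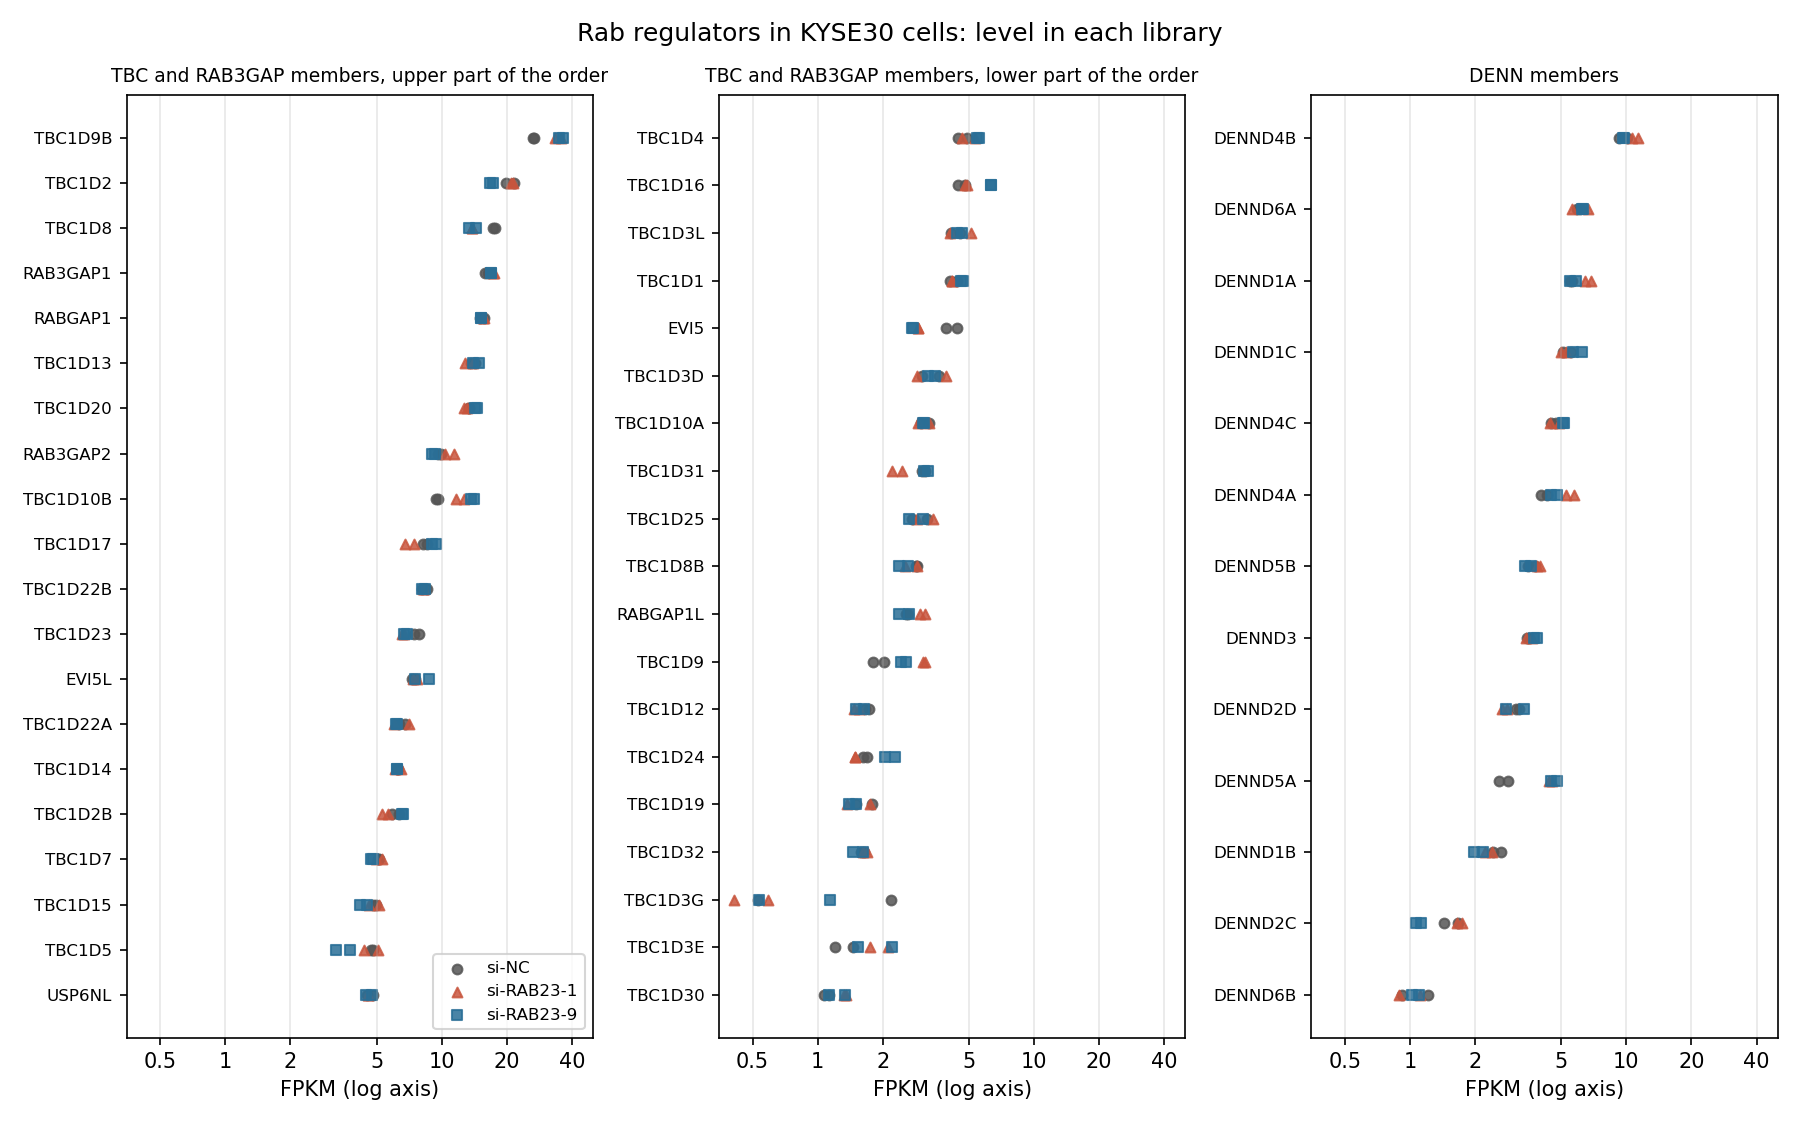
FPKM of the 52 members tested (log axis), 1 point per library and 1 row per gene, ordered by the control mean, for si-NC (circles), si-RAB23-1 (triangles) and si-RAB23-9 (squares). Control means run from 26.71 FPKM for TBC1D9B to 1.065 for DENND6B, and for most genes the 6 points lie close together.

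The summed level of all 65 members was 319.3 and 320.1 FPKM in si-NC, 329.5 and 332.3 in si-RAB23-1, and 329.8 and 331.9 in si-RAB23-9. Both siRNA groups thus lay above the controls, by little. TBC1D9B alone went from a mean of 26.71 FPKM in si-NC to 34.49 in si-RAB23-1 and 35.61 in si-RAB23-9, so the sum leans on this gene. The median log2 change of the members tested was 0.01 and 0.002. The 14 DENN genes summed to 54.18 and 53.21 FPKM in si-NC, 59.61 and 58.09 in si-RAB23-1, and 55.97 and 57.42 in si-RAB23-9. No test was made on these sums.

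The first comparison asks what the members did with si-RAB23-1 against si-NC. By limma, 5 of the 52 members tested rose and 3 fell, which is 15.4% of them. Over all 14352 genes tested, 15.4% passed in either direction (2209 genes), 8.13% higher and 7.26% lower. With si-RAB23-9 against the same si-NC libraries, 4 members rose and 3 fell, or 13.5%, beside 13.3% of all genes (1902 genes), 7.56% higher and 5.69% lower. The share of members that passed was therefore close to that of any gene in both comparisons. The median log2 change of the members was 0.010 and 0.002, beside 0.008 and 0.006 over all genes, and the median absolute change 0.070 and 0.099, beside 0.127 and 0.118. Both comparisons share the si-NC libraries, so a member that passed in both rests in part on the same values.

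**Figure D2:**
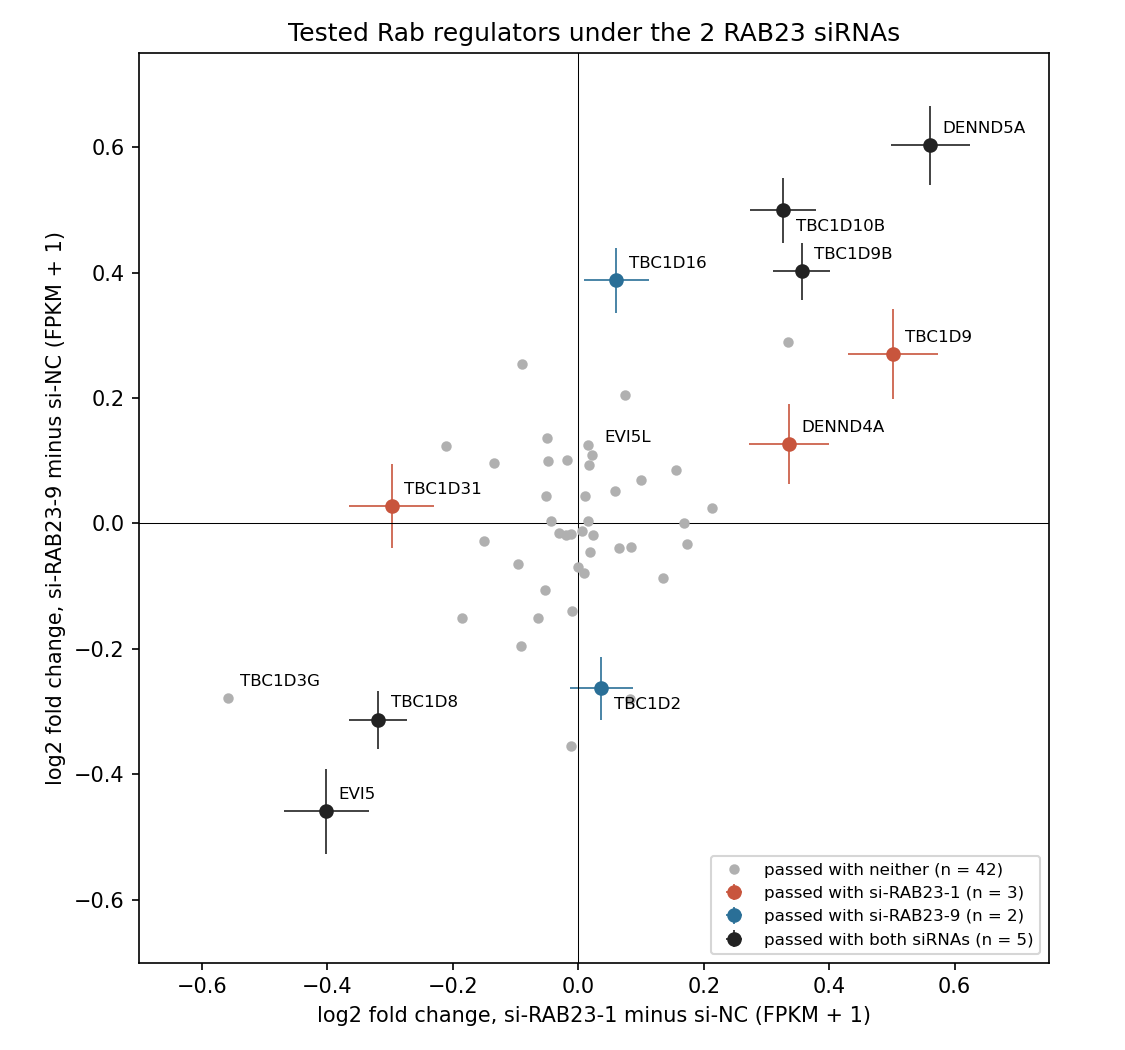
limma log2 change with si-RAB23-1 (x axis) and si-RAB23-9 (y axis) against si-NC for the 52 members tested, with bars of 1 standard error for members that passed. DENND5A, TBC1D10B and TBC1D9B lie at the upper right, EVI5 and TBC1D8 at the lower left, and 42 members passed with neither siRNA.

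Among the exchange factors, DENND5A showed the widest change. DENND5A is a RAB6 effector and an exchange factor for RAB39, and the gene lies at chr11:9138825-9265390, minus strand. It stood at 2.586 and 2.845 FPKM in si-NC, 4.404 and 4.556 in si-RAB23-1, and 4.481 and 4.803 in si-RAB23-9. All 4 libraries with a RAB23 siRNA lay above both controls, and those of one siRNA overlapped those of the other. The mean was 1.65-fold and 1.71-fold that of si-NC (log2 change 0.56 ± 0.0629 (SE) and 0.60 ± 0.0629, limma adjusted p = 0.00616 and 0.00602). The change with si-RAB23-1 passed with any 1 of the 6 libraries left out (adjusted p between 0.0208 and 0.048), and was the only one of 24 such member results to do so. The change with si-RAB23-9 was lost only without si-RAB23-9 replicate 2 (adjusted p = 0.0534).

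DENND4A (chr15:65658046-65792293, minus strand), an exchange factor for RAB10, stood at 4.014 and 4.31 FPKM in si-NC, 5.756 and 5.276 in si-RAB23-1, and 4.495 and 4.775 in si-RAB23-9. Its si-RAB23-1 libraries lay above all others. It rose 1.33-fold with si-RAB23-1 (log2 0.34 ± 0.0635, limma adjusted p = 0.0241), a result lost in 5 of 6 fits with 1 library left out, all but that without si-RAB23-1 replicate 2, where adjusted p was 0.0369. With si-RAB23-9 the log2 change was 0.13 (95% interval -0.03 to 0.28), and the difference between the siRNAs did not pass (-0.21, adjusted p = 0.0708), except by voom on recovered reads (-0.25, adjusted p = 0.00486), limma's method for counts. The other 11 DENN genes tested did not pass with either siRNA in the limma fit reported here. DENND4B had log2 changes of 0.17 and 0.00, DENND6A of 0.01 and 0.04, and DENND1A of 0.21 (adjusted p = 0.0524) and 0.02. With a mean of at least 5 FPKM, DENND1A passed higher with si-RAB23-1 by limma (0.21, adjusted p = 0.0376). It was 1 of 4 DENN genes tested there, beside 2243 of 7534 genes that passed. None of the DENN members passed lower with either siRNA by limma. By voom, 4 of the 13 DENN genes passed with si-RAB23-1, all higher and among them DENND1A (0.245, adjusted p = 0.00266) and DENND4B (0.18, adjusted p = 0.0189), beside 26.4% of all genes. With si-RAB23-9, voom passed 3, DENND5A higher and DENND2C and DENND1B lower, beside 23.7% of all genes. An unadjusted limma p under 0.05 was reached by 4 DENN genes with si-RAB23-1 and 3 with si-RAB23-9, beside 31.7% and 29.7% of all genes.

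Among the TBC genes, 3 rose and 3 fell with each siRNA against si-NC. TBC1D9B (chr5:179862066-179907859, minus strand), a TBC protein that has been linked to RAB11 recycling and is the most abundant member, stood at 26.56 and 26.86 FPKM in si-NC, 33.24 and 35.73 in si-RAB23-1, and 34.93 and 36.3 in si-RAB23-9. Both siRNA groups lay clear of the controls and overlapped each other. It rose 1.29-fold and 1.33-fold (log2 0.36 ± 0.046 and 0.40 ± 0.046, limma adjusted p = 0.00912 and 0.00706). Without either si-NC library the first result was lost (adjusted p up to 0.0637). The second was lost without either si-NC library and without si-RAB23-9 replicate 2 (up to 0.0634).

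TBC1D10B, also called EPI64B, belongs to a group of GTPase-activating proteins known for RAB27A and RAB35. Its gene (chr16:30357102-30370264, minus strand) stood at 9.441 and 9.591 FPKM in si-NC, 11.66 and 12.74 in si-RAB23-1, and 13.66 and 14.07 in si-RAB23-9. The 3 groups did not overlap. It rose 1.28-fold and 1.46-fold (log2 0.33 ± 0.052 and 0.50 ± 0.052, limma adjusted p = 0.0155 and 0.00602), and the difference between the siRNAs did not pass (0.17, adjusted p = 0.0689). That difference passed by voom (adjusted p = 0.0154), with a mean of at least 5 FPKM (0.0411) and without si-RAB23-1 replicate 2 (0.0341). Leaving out either si-NC library ended the result with si-RAB23-1 (up to 0.0902), and leaving out si-RAB23-9 replicate 2 ended that with si-RAB23-9 (0.0548). Of the exonic bases of TBC1D10B, 5.3% are shared with an antisense gene, AC106782.6, and no strand setting is given.

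TBC1D9 (chr4:140620765-140756120, minus strand), a relative of TBC1D9B, stood at 1.794 and 2.018 FPKM in si-NC, 3.146 and 3.075 in si-RAB23-1, and 2.57 and 2.434 in si-RAB23-9. The groups did not overlap, with si-RAB23-1 highest. It rose 1.63-fold with si-RAB23-1 (log2 0.50 ± 0.0719, limma adjusted p = 0.0118), lost without si-NC replicate 1 or 2 or si-RAB23-1 replicate 1 (up to 0.0708). With si-RAB23-9 it did not pass (1.31-fold, log2 0.27, adjusted p = 0.0643), and neither did the difference between the siRNAs (-0.23, adjusted p = 0.0745). By voom both passed (0.39, adjusted p = 0.0099, and -0.31, adjusted p = 0.0207).

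TBC1D8 (chr2:101007617-101252866, minus strand), a TBC protein with GRAM domains, stood at 17.63 and 17.33 FPKM in si-NC, 13.86 and 13.77 in si-RAB23-1, and 14.4 and 13.37 in si-RAB23-9. Both siRNA groups lay below the controls and overlapped each other. It fell to 0.791 and 0.795 of the control mean (log2 -0.32 ± 0.0461 and -0.31 ± 0.0461, limma adjusted p = 0.0121 and 0.013). Both results were lost without either si-NC library, and that of si-RAB23-9 also without its replicate 2 (adjusted p up to 0.0795 and 0.0844). TBC1D8 thus passed in opposite direction to TBC1D9B with both siRNAs.

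EVI5 (chr1:92508696-92792404, minus strand) encodes a centrosomal and cell cycle protein with a TBC domain that acts on RAB11. It stood at 3.907 and 4.426 FPKM in si-NC, 2.91 and 2.902 in si-RAB23-1, and 2.763 and 2.744 in si-RAB23-9. All 4 libraries with a RAB23 siRNA lay below both controls. EVI5 fell to 0.698 and 0.661 of the control mean (log2 -0.40 ± 0.068 and -0.46 ± 0.068, limma adjusted p = 0.0181 and 0.0132). The first result was lost without either si-NC or either si-RAB23-1 library (up to 0.0978), and the second without si-NC replicate 2 or either si-RAB23-9 library (up to 0.0836).

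The 3′ UTRs of the members were searched on the transcript strand for the 7-mers GACATAT and AAGTTAA, which earlier results of these data had linked with genes that fell with si-RAB23-1 and si-RAB23-9, so the shares over all genes are not independent evidence. Among 10913 genes scanned, 928 (the carriers) hold GACATAT and 25.6% of them fell with si-RAB23-1, against 7.11% of the others. A total of 2025 hold AAGTTAA, and 17.3% of them fell with si-RAB23-9, against 4.21% of the others. Of the 52 members tested, 7 hold GACATAT and none of these passed with si-RAB23-1 by limma. An unadjusted limma p under 0.05 was reached by 2, TBC1D23 lower (-0.19) and RAB3GAP1 higher (0.10), beside 31.7% of all genes. Voom on recovered reads passed 1, TBC1D23 lower, beside 26.4% of all genes. Of the 13 members that hold AAGTTAA, 1 fell with si-RAB23-9, EVI5, which also fell with si-RAB23-1 and has no GACATAT. Of these 13, 4 had an unadjusted limma p under 0.05 with si-RAB23-9, beside 29.7% of all genes. Voom passed 4 there, beside 23.7% of all genes, with EVI5, DENND2C and DENND1B lower and TBC1D4 higher. These sites, written 5′ to 3′ with 10 bases on each side and the 7-mer in capitals, are shown for EVI5, the carrier that fell, and, as examples chosen after their values were seen, for DENND2C, RAB3GAP2 and TBC1D23. They were read from GENCODE 29 transcripts on GRCh38. A gene counted as holding a 7-mer where the 3′ UTR of at least 1 annotated transcript did. Some sites lay in few transcripts: AAGTTAA in 1 of 7 for TBC1D7 and 2 of 13 for RABGAP1L, GACATAT in 1 of 4 for RAB3GAP1. Those of EVI5 lay in 2 of 2 and that of TBC1D23 in 2 of 3. Which of these transcripts the cells express was not tested.
EVI5, chr1:92509884-92509890, minus strand: gaatgttattAAGTTAAacacttagag
EVI5, chr1:92512492-92512498, minus strand: aataggttaaAAGTTAAaaataaaaca
DENND2C, chr1:114584236-114584242, minus strand: aaattcaaagAAGTTAAatacgttgcc
RAB3GAP2, chr1:220150550-220150556, minus strand: attataatgtAAGTTAAgatttgcttt
TBC1D23, chr3:100323719-100323725, plus strand: gagaaacatgGACATATacctcctgac

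DENND2C, an exchange factor for RAB9, stood at 1.43 and 1.663 FPKM in si-NC, 1.734 and 1.65 in si-RAB23-1, and 1.064 and 1.125 in si-RAB23-9. Its si-RAB23-9 libraries were the lowest, with log2 changes of -0.28 (limma adjusted p = 0.123) against si-NC and -0.36 (adjusted p = 0.0515) against si-RAB23-1, neither of which passed. By voom on recovered reads both passed (-0.49, adjusted p = 0.00525, and -0.63, adjusted p = 0.000429). The difference from si-RAB23-1 also passed by limma with a pseudocount of 0.1 in place of 1 (-0.585, adjusted p = 0.0462). TBC1D4, the substrate of AKT in insulin-stimulated glucose uptake, holds 2 copies of GACATAT and 1 of AAGTTAA and had log2 changes of 0.08 and 0.20, neither of which passed, although by voom it passed higher with si-RAB23-9 (0.24, adjusted p = 0.0162). A match is a description of the letters and does not show that a transcript is bound there.

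EVI5L, the paralogue of EVI5 described for RAB23, stood at 7.517 and 7.331 FPKM in si-NC, 7.386 and 7.719 in si-RAB23-1, and 7.519 and 8.699 in si-RAB23-9. Its highest value came from si-RAB23-9 replicate 2, while replicate 1 of that group was almost level with the controls. The log2 changes were 0.02 (95% interval -0.15 to 0.20, limma adjusted p = 0.865) and 0.11 (-0.06 to 0.28, adjusted p = 0.364), so no difference from si-NC was detectable for this gene at the spread of these libraries.

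Members that have been described at the primary cilium or in Hedgehog signalling gave further values. TBC1D32, needed for Hedgehog signalling and cilia in mice, stood between 1.451 and 1.685 FPKM in the 6 libraries, with log2 changes of 0.02 (95% interval -0.20 to 0.24) and -0.05 (-0.26 to 0.17). TBC1D30, a GTPase-activating protein for RAB8, stood between 1.07 and 1.359 FPKM, with 0.16 (-0.11 to 0.42) and 0.09 (-0.18 to 0.35). TBC1D7, a subunit of the TSC complex that restrains mTORC1, stood between 4.699 and 5.3 FPKM, with 0.01 (-0.12 to 0.14) and -0.08 (-0.21 to 0.05). None of these passed.

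TBC1D31 (chr8:123041968-123152153, plus strand), a protein of centriolar satellites, stood at 3.128 and 3.042 FPKM in si-NC, 2.453 and 2.199 in si-RAB23-1, and 3.234 and 3.096 in si-RAB23-9. Its si-RAB23-1 libraries were lowest, and the other groups overlapped. It fell to 0.754 of the control mean with si-RAB23-1 (log2 -0.30 ± 0.0674, limma adjusted p = 0.0389), and this was lost with each of the 6 libraries left out (adjusted p between 0.0624 and 0.169). With si-RAB23-9 the log2 change was 0.03 (adjusted p = 0.827). The siRNAs differed by 0.33 (si-RAB23-9 above si-RAB23-1, adjusted p = 0.0253), lost in 5 of 6 fits, all but that without si-RAB23-1 replicate 1 (0.0484). It shares 4.6% of its exonic bases with DERL1 on the other strand.

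TBC1D16 and TBC1D2 passed against si-NC with si-RAB23-9 and not with si-RAB23-1. TBC1D16 (chr17:79932343-80035848, minus strand), a GTPase-activating protein for RAB4, stood at 4.799 and 4.432 FPKM in si-NC, 4.895 and 4.815 in si-RAB23-1, and 6.354 and 6.331 in si-RAB23-9. The si-RAB23-9 libraries lay above all others. It rose 1.37-fold against si-NC (log2 0.39 ± 0.0519, limma adjusted p = 0.0105) and 1.31-fold against si-RAB23-1 (0.33, adjusted p = 0.0125). The first result was lost without si-NC replicate 2 or either si-RAB23-9 library (up to 0.0758), the second without either si-RAB23-9 library (up to 0.0742).

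TBC1D2 (chr9:98198999-98255721, minus strand), known as Armus, inactivates RAB7 and binds active RAC1. It stood at 21.53 and 19.75 FPKM in si-NC, 21.35 and 21.0 in si-RAB23-1, and 16.8 and 17.24 in si-RAB23-9. The si-RAB23-9 libraries were the lowest, and the other groups overlapped. It fell to 0.825 of the control mean with si-RAB23-9 (log2 -0.26 ± 0.05, limma adjusted p = 0.026), and differed by -0.30 from si-RAB23-1 (adjusted p = 0.0145). Leaving out either si-NC or either si-RAB23-9 library ended the first result (up to 0.133), and leaving out si-RAB23-1 replicate 1 or either si-RAB23-9 library ended the second (up to 0.0813).

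**Figure D3:**
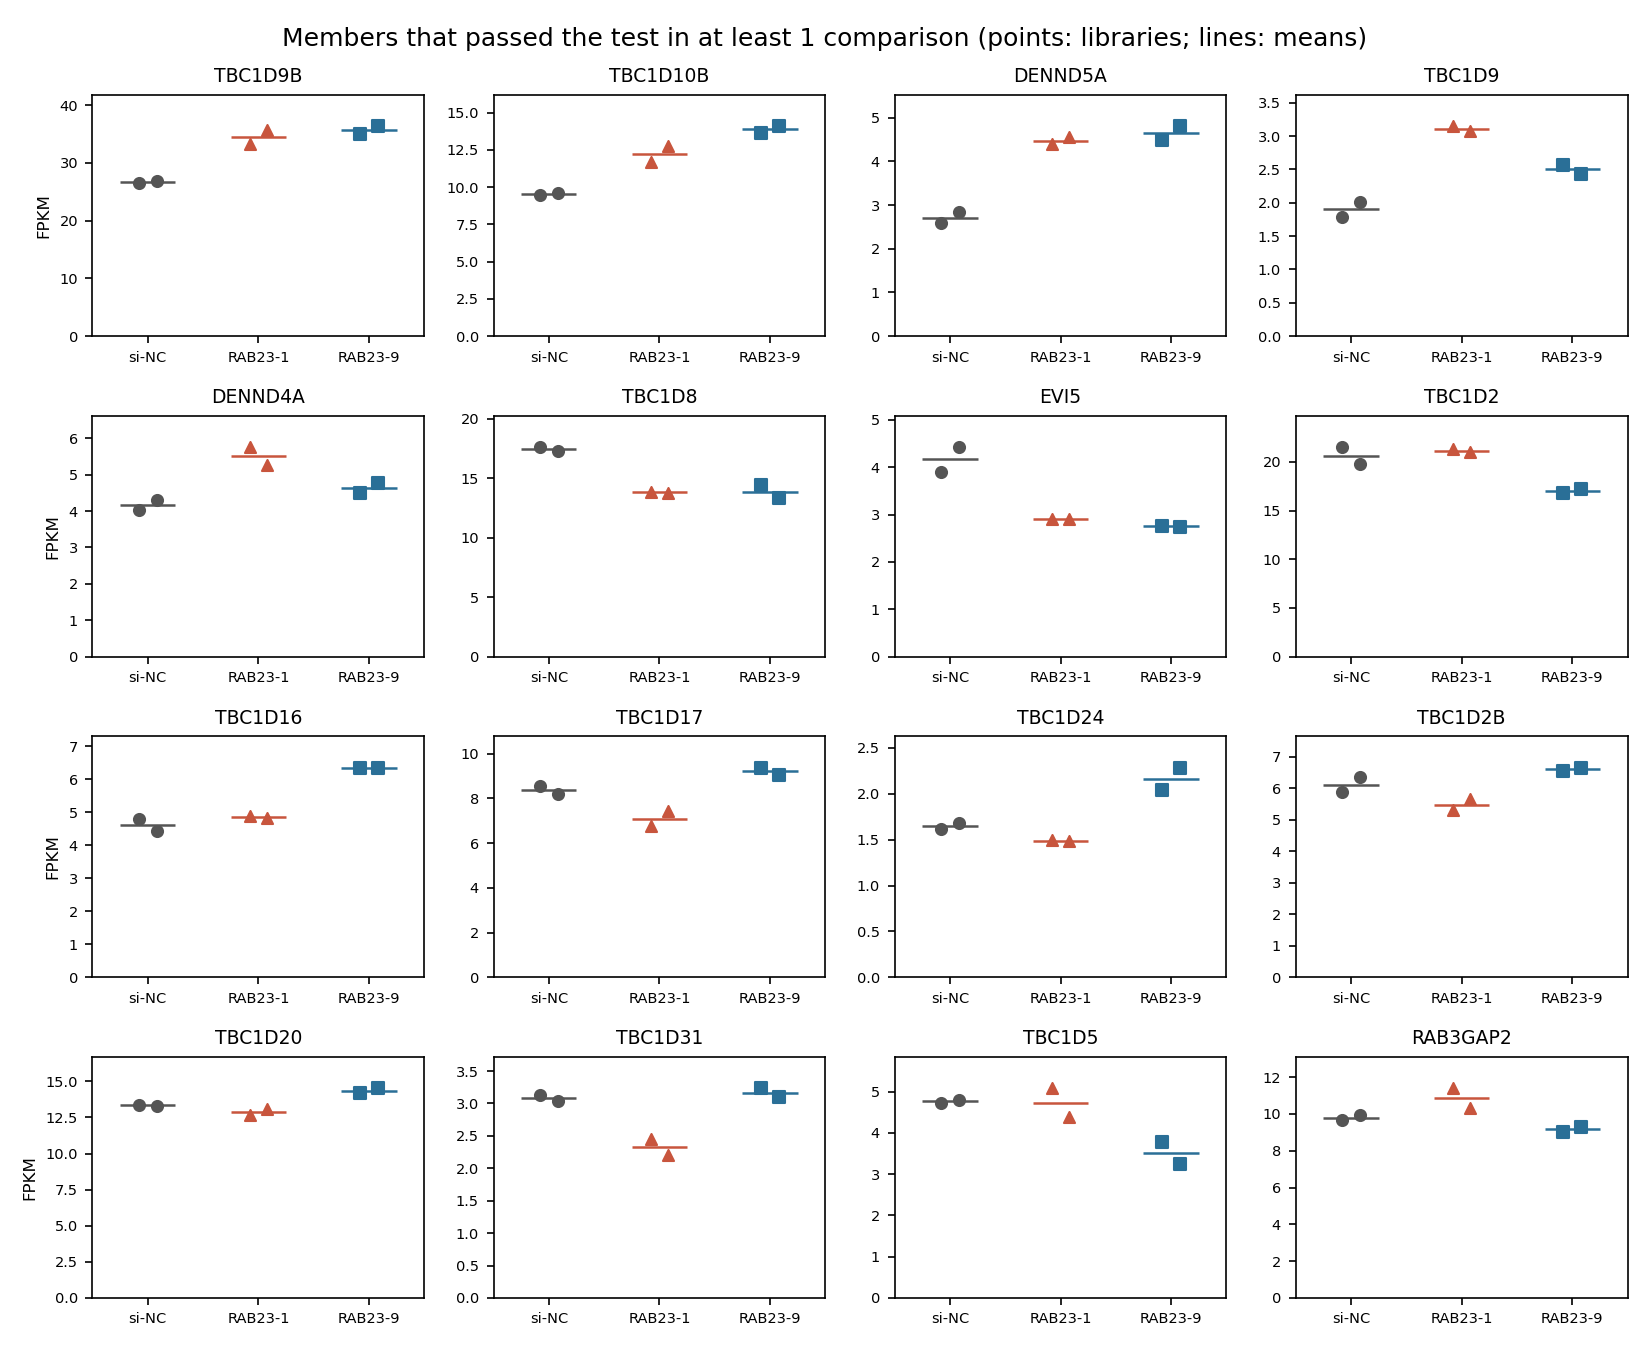
FPKM of the 16 members that passed in at least 1 of the 3 comparisons, 1 panel per gene with its own axis from 0, 1 point per library and a line at each group mean (n = 2). DENND5A, TBC1D9B and TBC1D10B stand above the controls with both siRNAs, TBC1D8 and EVI5 below, and TBC1D16 and TBC1D2 stand apart with si-RAB23-9.

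The direct comparison of the siRNAs asks where si-RAB23-9 and si-RAB23-1 differed. By limma, 6 of the 52 members were higher with si-RAB23-9 and 3 lower, or 17.3%, beside 21.0% of all genes (3019 genes), 11.1% higher and 9.89% lower. The members' share was again near that of all genes and somewhat below it. Besides TBC1D31, TBC1D16 and TBC1D2, this comparison held TBC1D17, TBC1D24, TBC1D2B, TBC1D20, TBC1D5 and RAB3GAP2. None of these last passed against si-NC with either siRNA in the limma fit reported here. By voom, TBC1D17 passed lower with si-RAB23-1 (-0.24, adjusted p = 0.013) and TBC1D24 higher with si-RAB23-9 (0.38, adjusted p = 0.00149). TBC1D17 also passed lower with si-RAB23-1 by limma with a mean of at least 5 FPKM (-0.21, adjusted p = 0.0365). Without si-RAB23-1 replicate 2 its log2 change there was -0.27. No DENN member passed in the limma fit reported here, while 5 of 13 had an unadjusted p under 0.05, beside 36.2% of all genes. By limma with a pseudocount of 0.1, DENND2C passed lower (adjusted p = 0.0462), beside 2988 of 14352 genes. With a mean of at least 5 FPKM, limma passed DENND1A (0.0472) and DENND4B (0.0484) lower, 2 of 4 DENN genes tested, beside 2808 of 7534 genes. Voom passed 5 of the 13, beside 30.7% of all genes (DENND2C, DENND4A, DENND1A and DENND4B lower, DENND1C higher).

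TBC1D17 (chr19:49877425-49888749, plus strand), a GTPase-activating protein studied in autophagy, stood at 8.545 and 8.183 FPKM in si-NC, 6.755 and 7.441 in si-RAB23-1, and 9.371 and 9.038 in si-RAB23-9. The controls lay between the siRNA groups. The difference between the siRNAs was 0.33 ± 0.0573 (1.3-fold, limma adjusted p = 0.0154), lost without either si-RAB23-9 library (up to 0.0846). It shares 8.3% of its exonic bases with AKT1S1 on the other strand.

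TBC1D24 (chr16:2475051-2509560, plus strand), a synaptic vesicle gene known from epilepsy and deafness, stood at 1.619 and 1.684 FPKM in si-NC, 1.493 and 1.488 in si-RAB23-1, and 2.042 and 2.284 in si-RAB23-9. It showed the same order as TBC1D17, with the controls in between (difference 0.34 ± 0.0841, 1.45-fold, limma adjusted p = 0.0393). TBC1D2B (chr15:77984036-78077724, minus strand), the paralogue of TBC1D2, stood at 5.873 and 6.356, 5.311 and 5.657, and 6.555 and 6.656 FPKM in the same order of groups (0.23 ± 0.0558, adjusted p = 0.0384). TBC1D20 (chr20:435480-462553, minus strand), a GTPase-activating protein for RAB1 at the endoplasmic reticulum, stood at 13.35 and 13.31, 12.67 and 13.07, and 14.21 and 14.52 FPKM (0.15 ± 0.0385, adjusted p = 0.0466). These 3 results were lost with each library left out in turn, with adjusted p up to 0.188 for TBC1D24, 0.163 for TBC1D2B and 0.213 for TBC1D20. TBC1D2B and TBC1D2 thus passed in opposite directions in this comparison.

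TBC1D5 (chr3:17157162-18444817, minus strand), a retromer-bound protein that inactivates RAB7, stood at 4.717 and 4.803 FPKM in si-NC, 5.078 and 4.375 in si-RAB23-1, and 3.782 and 3.241 in si-RAB23-9. The si-RAB23-9 libraries lay below all others. The siRNAs differed by -0.34 ± 0.087 (ratio 0.743, limma adjusted p = 0.0431), and the change with si-RAB23-9 against si-NC missed the threshold (-0.36, ratio 0.738, adjusted p = 0.0523). The latter passed by voom (-0.45, adjusted p = 4.88e-05), with only the 2 groups compared (0.0444) and without si-RAB23-1 replicate 1 (0.0447) or 2 (0.0443). The difference held only without si-RAB23-1 replicate 2 (0.0383) among the fits with 1 library left out, the others reaching 0.18.

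RAB3GAP2 (chr1:220148293-220272454, minus strand), the subunit without catalytic activity, stood at 9.658 and 9.916 FPKM in si-NC, 11.39 and 10.33 in si-RAB23-1, and 9.038 and 9.284 in si-RAB23-9. The siRNA groups lay on opposite sides of the controls and differed by -0.22 ± 0.0553 (ratio 0.844, limma adjusted p = 0.0415), held only without si-RAB23-1 replicate 2 (0.0247) among fits with 1 library left out, the others reaching 0.165. It shares 10.1% of its exonic bases with the pseudogene AURKAP1 on the same strand. Its catalytic partner RAB3GAP1 stood at 15.78 and 16.38, 17.37 and 17.21, and 16.94 and 16.9 FPKM. RAB3GAP1 did not pass in any comparison (log2 0.10, adjusted p = 0.136, 0.07, adjusted p = 0.283, and -0.03, adjusted p = 0.607), although both siRNA groups lay above the controls.

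**Figure D4:**
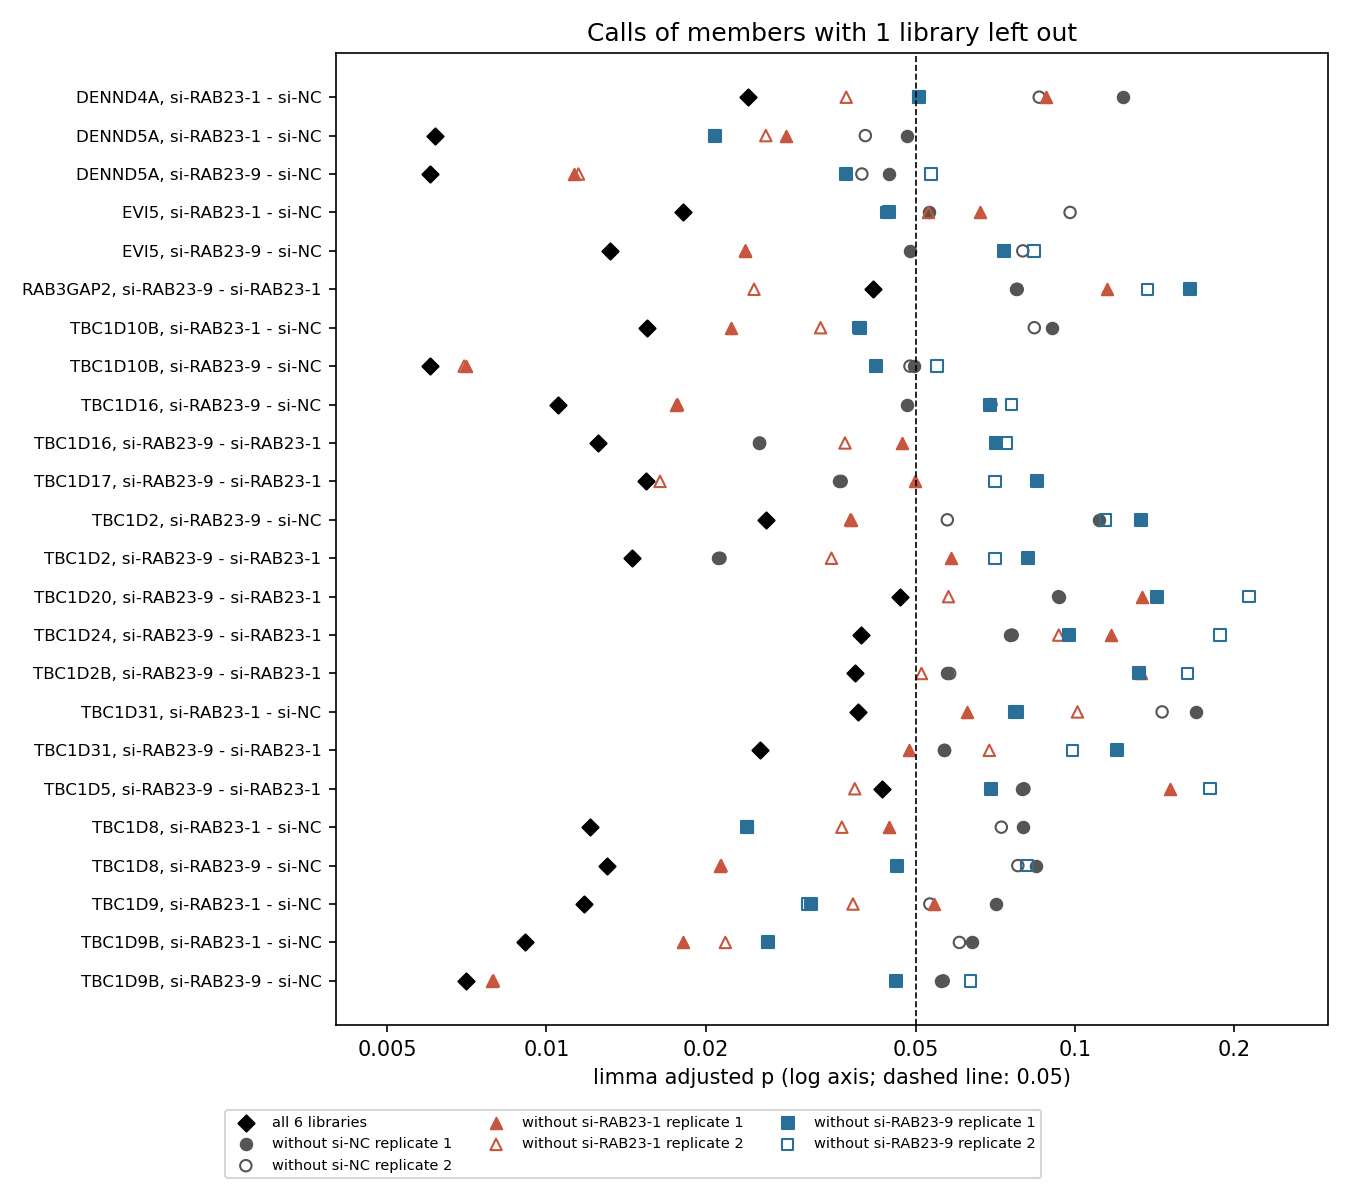
limma adjusted p (log axis) of each of the 24 member results that passed, with all 6 libraries (diamonds) and with each library left out in turn. DENND5A with si-RAB23-1 is the one row whose points all lie left of the dashed line at 0.05.

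In the limma fit reported here, 36 members tested passed in no comparison, 32 of them outside the TBC1D3 copies. For those 32, log2 changes ran from -0.19 (TBC1D23) to 0.21 (DENND1A) with si-RAB23-1, from -0.28 (DENND2C) to 0.20 (TBC1D4) with si-RAB23-9, and from -0.36 (DENND2C) to 0.19 (DENND1C) between the siRNAs. The nearest to the threshold was TBC1D23, which captures vesicles at the trans-Golgi, at 7.846 and 7.473 FPKM in si-NC, 6.564 and 6.667 in si-RAB23-1, and 6.689 and 6.914 in si-RAB23-9. All 4 siRNA libraries lay below the controls (log2 -0.19, limma adjusted p = 0.05 to 3 digits and above the threshold, and -0.15, adjusted p = 0.0901). With si-RAB23-1 it passed with median-of-ratios scaling (0.0498), with a mean of at least 5 FPKM (0.0389) and by voom (0.0185).

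The TBC1D3 genes are near-identical, hominoid-specific copies clustered on chromosome 17, and reads cannot be assigned to single copies with certainty. None of the 4 copies tested passed in any comparison by limma, none had an unadjusted p under 0.05, and voom on recovered reads passed none. The 11 copies together stood at 9.997 and 11.2 FPKM in si-NC, 10.72 and 10.95 in si-RAB23-1, and 10.52 and 11.44 in si-RAB23-9. Their sum thus overlapped between the groups, while TBC1D3G alone ranged from 0.409 to 2.18 FPKM, with its highest value in si-NC replicate 2 and 0.527 in the other control.

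For comparison, 60 other Rab regulators were listed, and 54 were tested. The list held other DENN-type proteins, other GTPase-activating proteins with a TBC domain, further exchange factors, escort proteins, GDP dissociation inhibitors and TRAPP subunits. With si-RAB23-1, 7 rose and 2 fell (16.7%). With si-RAB23-9, 1 rose and 2 fell (5.56%). Between the siRNAs, 1 was higher with si-RAB23-9 and 9 lower (18.5%). The median log2 changes of the list were 0.066, -0.026 and -0.071. The shares over all genes are those given above.

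In that list ANKRD27, an exchange factor for RAB21, stood at 9.065 and 8.701 FPKM in si-NC, 13.16 and 12.44 in si-RAB23-1, and 9.32 and 9.549 in si-RAB23-9, and its si-RAB23-1 libraries were the highest. It rose with si-RAB23-1 (log2 0.48 ± 0.0469, limma adjusted p = 0.00461) and differed between the siRNAs (-0.40, adjusted p = 0.0054), both held with any 1 library left out. TRAPPC1, a core TRAPP subunit, rose with si-RAB23-1 (0.32, adjusted p = 0.0047), as did RIN2, an exchange factor for RAB5 (0.36, adjusted p = 0.0212), TRAPPC6A (0.33, adjusted p = 0.0493) and MON1B, part of the RAB7 exchange factor (0.26, adjusted p = 0.0264). CHM, the Rab escort protein mutated in choroideremia, fell with si-RAB23-1 (-0.46, adjusted p = 0.00597) and was higher with si-RAB23-9 than with si-RAB23-1 (0.27, adjusted p = 0.0198). RIN1, a RAS effector and RAB5 exchange factor, fell with both siRNAs (-0.41, adjusted p = 0.0183, and -0.41, adjusted p = 0.0195). Among the DENN-type proteins of the list, AVL9 fell with si-RAB23-9 (-0.46, limma adjusted p = 0.0121). MADD, a RAB3 and RAB27 exchange factor with a DENN domain, rose with it (0.22, limma adjusted p = 0.0338). SMCR8, also of DENN type, rose with si-RAB23-1 (0.24, limma adjusted p = 0.0152). SMCR8 and FLCN, of the same type, were lower with si-RAB23-9 than with si-RAB23-1 (-0.27, adjusted p = 0.0087, and -0.16, adjusted p = 0.0393). SBF2, named next, is also of DENN type. Lower with si-RAB23-9 than with si-RAB23-1 were, besides ANKRD27, AVL9 (-0.49, adjusted p = 0.00765), RIN2 (-0.39, adjusted p = 0.0147), SBF2 (-0.29, adjusted p = 0.0469) and CHML (-0.28, adjusted p = 0.0453), as the widest differences. Among the 22 results of the list that passed, 3 held with any 1 library left out, those of ANKRD27 and that of TRAPPC1 with si-RAB23-1.

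The exchange factor subunits of RAB23 were scarce. INTU stood at 1.199 and 1.366 FPKM in si-NC, 1.101 and 1.221 in si-RAB23-1, and 0.9127 and 0.9787 in si-RAB23-9, lowest in the si-RAB23-9 libraries. Its means were 0.905 and 0.737 of the control mean. The log2 changes of INTU, -0.08 (95% interval -0.35 to 0.20) and -0.23 (-0.50 to 0.05), did not pass (limma adjusted p = 0.677 and 0.237). FUZ stood between 0.0955 and 0.229 FPKM and was not tested.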

How the data were processed

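Per the labels, KYSE30 cells in 3 groups of 2 libraries were sequenced. The authors deposited 1 table of FPKM per gene and library. Per the submitters' processing notes, the tools were STAR 2.5.1b, Trimmomatic 0.36, FastQC, edgeR 3.8.5 and RSEM 1.2.29, whose roles are not stated, and hg19 is the build named. All 58735 gene starts, ends and exon lengths equal those of GENCODE 29 on GRCh38, which is used here for coordinates. FPKM times gene length gave whole reads for 100% of values (within 0.01 reads), 17211025 to 24178125 per library. Tests were run in R 4.3.3 with limma 3.58.1 on the log2 of the deposited FPKM plus 1: 1 mean per group over all 6 libraries, eBayes with trend, two-sided, Benjamini-Hochberg over the 14352 genes that reached 1 FPKM in 2 or more libraries. The fit was tested on simulated data. The genes, lists and 7-mers were chosen with earlier results of these data known. By rule, every member that passed was named, with EVI5L, EVI5, TBC1D7, TBC1D30, TBC1D32, both RAB3GAP genes and the 3 highest TBC and DENN genes in controls. Further DENN and TBC genes near the threshold, and carriers of the 7-mers, were named after their values were seen. Of the other Rab regulators, up to 5 per direction and comparison of largest change were named, with INTU and FUZ. A few more of that list were named after their values were seen. Alternatives were a pseudocount of 0.1, no filter, a mean of at least 5 FPKM, quantile and median-of-ratios scaling, only the groups compared, a replicate block, voom on the recovered reads, and each library left out. For the other regulators they were chosen after seeing the data.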

Additional observations from a re-analysis of the deposited data

Results flagged for a closer look

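For 9 members the effects of the siRNAs against si-NC differed from each other by limma's direct test (adjusted p under 0.05 over all 14352 genes). Higher with si-RAB23-9 were TBC1D24 (log2 difference 0.34, adjusted p = 0.0393), TBC1D16 (0.33, adjusted p = 0.0125), TBC1D17 (0.33, adjusted p = 0.0154), TBC1D31 (0.33, adjusted p = 0.0253), TBC1D2B (0.23, adjusted p = 0.0384) and TBC1D20 (0.15, adjusted p = 0.0466). Lower were TBC1D5 (-0.34, adjusted p = 0.0431), TBC1D2 (-0.30, adjusted p = 0.0145) and RAB3GAP2 (-0.22, adjusted p = 0.0415). None of the 9 held with every single library left out.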

How the results depend on the processing

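Under the 14 alternative settings, no gene checked turned direction where it passed, in the fits that tested it (a mean of at least 5 FPKM left out RAB23 and members with lower means). The check covered RAB23, the members that passed in the fit reported and those named by rule, and not the other genes named. Members that rose and fell with si-RAB23-1 numbered 5 and 3 in the fit reported. They numbered 4 and 1 with no filter on low values and 8 and 5 by voom on recovered reads. With a mean of at least 5 FPKM only 22 members were tested, of which 3 rose and 3 fell, beside 2243 of 7534 genes that passed. With si-RAB23-9, 4 and 3 became 7 and 6 by voom, and 4 and 4 with only the 2 groups compared. Between the siRNAs, 6 higher and 3 lower became 2 and 1 with no filter, 2 and 1 with only the 2 groups compared, and 9 were lower by voom. By voom, all members that passed in the fit reported remained. Over all genes, 2209, 1902 and 3019 results became 1049, 983 and 1458 with no filter and 3794, 3407 and 4406 by voom. With only the 2 groups compared they became 1309, 2194 and 1997, so si-RAB23-9 against si-NC gained results. The other regulators' 9, 3 and 10 became 4, 1 and 4 with no filter and 17, 10 and 19 by voom. With no filter more genes were tested, 35196.

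Leaving out 1 library gave 1 to 5 members higher and 0 to 2 lower with si-RAB23-1, 0 to 4 and 0 to 4 with si-RAB23-9, and 0 to 3 and 0 to 3 between the siRNAs. In those fits the counts over all genes also fell or varied, to between 417 and 1886, 273 and 2159, and 761 and 2756. With si-RAB23-9, the members that passed were fewest without its replicate 2, and so were all genes that passed. Between the siRNAs, both were fewest without si-RAB23-9 replicate 1 or 2. A group left with 1 library is assumed to vary like the others. The other regulators went to between 2 and 9, 0 and 3, and 2 and 7.

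Libraries share only a replicate number: the correlations of replicate differences between groups over 14352 genes were -0.0562, -0.0158 and 0.061. With the replicate number as a block, 5 members rose and 2 fell with si-RAB23-1, 4 and 3 with si-RAB23-9, and 4 and 2 between the siRNAs, and 1655, 1437 and 2423 of all genes passed. The results lost under the block were TBC1D31 with si-RAB23-1 and RAB3GAP2, TBC1D20 and TBC1D24 between the siRNAs, and, of the other regulators, HPS1 and TRAPPC6A with si-RAB23-1 and FLCN and SBF2 between the siRNAs. The lowest read count of a tested member other than a TBC1D3 copy was 85 in a library, and counting error limits the precision most for such genes.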
